A study of Rattus norvegicus with 12 samples.

Results

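Nuclear genes of mitochondrial oxidative phosphorylation were followed in rat liver through removal of the pituitary gland and through growth hormone (GH) replacement. The 71 genes were taken from 35561 distinct gene names on the array by symbol: those beginning with Nduf, Sdha to Sdhd, Uqcr, Cox4 to Cox8 or Atp5, with the brightest probe standing for each gene (81 probes in all, 8 genes with several). By role, 61 encode subunits of the 5 complexes, namely 31 of complex I, 4 of complex II, 5 of complex III, 8 of complex IV and 13 of ATP synthase. The other 10 carry a similar symbol and were kept as a class of their own: tissue-restricted isoforms (Cox4i2, Cox6a2, Cox6b2, Cox8h), an assembly factor (Ndufaf1), a supercomplex factor (Cox7a2l), coupling factor B (Atp5s), a neighbouring gene (Cox4nb), a pseudogene in the reference table (Cox6c1) and a probe described as another gene (Cox6b).

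Oxidative phosphorylation takes place in the inner mitochondrial membrane. Complex I takes electrons from NADH and complex II takes them from succinate, ubiquinone carries them to complex III, cytochrome c carries them on to complex IV, and complex IV passes them to oxygen. Complexes I, III and IV pump protons while they do so, and ATP synthase makes ATP as the protons flow back. A few subunits of complexes I, III and IV and of ATP synthase come from mitochondrial DNA, and all others, including every gene described here, come from the nucleus. The pituitary secretes GH itself and also the hormones that drive the thyroid, the adrenal cortex and the gonads, and thyroid hormone is known for raising respiration in liver.

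All rats were Fischer 344, 12 weeks old. The RNAs were from intact males, intact females, hypophysectomised (pituitary removed) males and females, hypophysectomised males killed 30, 60 or 90 min after 1 GH injection, and hypophysectomised males given 2 GH injections 3 or 4 h apart. Each of the 6 comparisons set 2 RNAs against each other on 2 arrays with the dyes (Alexa 555 and Alexa 647) exchanged, 12 arrays in all. Each RNA was a pool of 3 to 4 livers, with different pools on the 2 arrays, except that a single pool of 4 livers (1 injection) or 5 livers (2 injections) served both arrays of its GH comparison. P-values rest on 1 spread per probe, fitted over all 12 arrays and shared by the 6 comparisons. That spread mixes differences between pools with, for the GH pools, a partly technical spread. On array 1 of the 1-injection comparison the title was followed, since the treatment label does not mention GH.

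Values are log2 ratios of the first-named RNA over the second, with the standard error (SE) of a limma model fitted to all 12 arrays. A gene was called higher or lower at a Benjamini-Hochberg adjusted p under 0.05 in limma, adjusted over all probes tested in that comparison. In each channel 58.9% to 71.7% of the probe spots stood well above background, and 69 of the 71 genes were so in all 24 channels. Exceptions were Cox6b (10 channels) and Cox6c1 (20 channels). The hepatocyte markers were well above background in 24 of 24 channels for 7 of 7 genes (albumin, Alb, among them). Because whole liver was measured, fewer cells of a type and less RNA per cell cannot be told apart.

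After pituitary removal the RNA of complex IV subunits was lower almost throughout, that of ATP synthase at most subunits, that of complex I at fewer, and that of complex II at almost none, in both sexes. In males 32 of 70 tested genes were lower and 2 were higher, against 18.5% and 19% of all probes tested. In females 37 of 70 were lower and 0 higher, against 18.4% and 17.9% of all probes, and 0 genes were higher at an unadjusted p under 0.05 in limma. The median ratio of the genes was -0.23 in males and -0.25 in females, while that of all probes was 0.01 and 0.00. The shift was thus modest for most genes and larger for a few.

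The calls leaned on the first array of each pair and on the normalization. Without array 1, 12 genes were called in males (10 lower) and 8 in females (7 lower), and without array 2 there were 34 and 23. When each array was only centred on its median, with no intensity-dependent correction, 0 genes were called in either sex, calls over all probes went from 9737 and 8835 to 330 and 357, and the gene medians were -0.02 and -0.27.

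**Figure D1:**
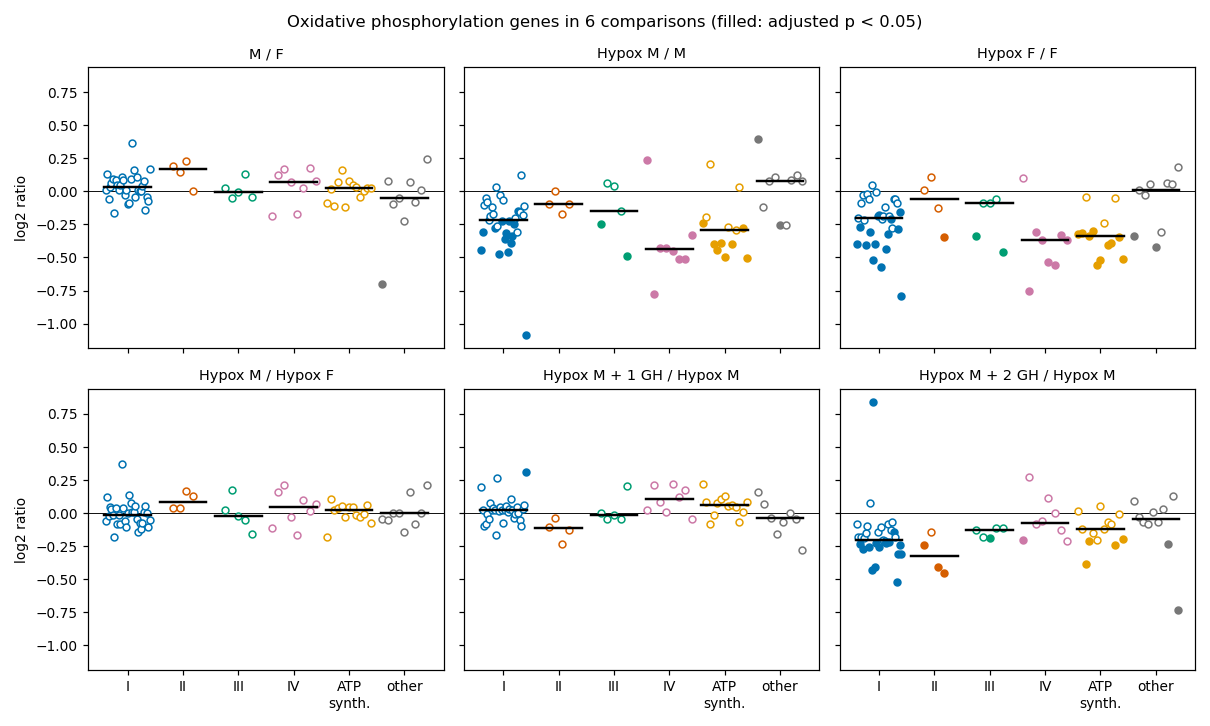
Log2 ratio (vertical axis) of each tested gene in the 6 comparisons, grouped along the horizontal axis by complex. Circles are genes, filled where the adjusted p was under 0.05, black bars are class medians, and M, F, Hypox and GH stand for male, female, hypophysectomised and growth hormone. Complex IV sits lowest after hypophysectomy, with medians of -0.44 in males and -0.37 in females, and complex II lowest after 2 GH injections, with a median of -0.32.

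Complex IV, cytochrome c oxidase, moved most uniformly. In males 7 of its 8 subunits fell and 1 rose, with a median of -0.44, and in females 7 of 8 fell, with a median of -0.37. Cox5a, a subunit on the matrix side, gave -0.96 and -0.59 on the 2 male arrays and -0.89 and -0.62 on the 2 female arrays. All 4 values lay well below 0, and the fitted change was -0.77 ± 0.15 in males (adjusted p = 0.0056, limma), 58.5% of the intact level, and -0.76 ± 0.15 in females (adjusted p = 0.0064). Without array 1 these calls were lost, with adjusted p of 0.098 in males and 0.15 in females. Cox7a2, a small membrane subunit, gave -0.56 and -0.46 in males and -0.72 and -0.40 in females. Cox7b and Cox6c, also small membrane subunits, were at -0.51 and -0.45 in males and -0.33 and -0.53 in females, each lower on both arrays and farther from 0 on array 1.

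The exception in complex IV was Cox4i1, the widely expressed form of the regulatory subunit 4 and a frequent loading control for mitochondria. It gave 0.25 and 0.23 on the 2 male arrays and 0.18 and 0.03 on the 2 female arrays. The rise in males was 0.24 ± 0.06 (adjusted p = 0.017, limma), and without array 2 of that comparison the adjusted p was 0.20. In females 0.10 ± 0.06 did not pass (adjusted p = 0.24), and the difference between the sexes was not called (0.11).

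Complex I was lower at 14 of 31 subunits in males and 15 of 31 in females, with medians of -0.22 and -0.20. Of the core subunits, those that carry the redox centres and the catalysis, Ndufs1, the large iron-sulfur subunit of the electron input module, was lower in both sexes, with -0.39 and -0.50 on the male arrays and -0.31 and -0.49 on the female arrays. Ndufv2 and Ndufs3, also core subunits, passed in females (-0.41 and -0.27, with -0.19 and -0.11 in males). Ndufv1, the flavoprotein that takes electrons from NADH, was at -0.22 and -0.21 and missed the threshold in both sexes (adjusted p = 0.062 and 0.066), and Ndufs7 and Ndufs8 lay between -0.09 and -0.03. Among the accessory subunits, which surround the core, 12 of 24 fell in each sex. The largest decrease of any gene in the set was that of Ndufv3l (Ndufv3 in RefSeq), an accessory subunit of the NADH-oxidising module. It read -0.94 and -1.24 on the male arrays and -0.67 and -0.92 on the female arrays, all 4 below every other complex I value of the same array. The fit gave -1.09 ± 0.07 in males (adjusted p = 3.4e-05, limma), 47.1% of the intact level, and -0.79 ± 0.07 in females (adjusted p = 0.00016), 57.7%.

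Other accessory subunits of complex I moved less. Ndufab1, the mitochondrial acyl carrier protein, was -0.36 ± 0.08 in males and -0.57 ± 0.08 in females, and Ndufa8, a subunit of the intermembrane-space side, was -0.47 and -0.40. Ndufb5, a membrane-arm subunit, was -0.39 and -0.44. At the other end Ndufa6, the brightest complex I probe, gave 0.03 ± 0.06 and 0.05 ± 0.06, and Ndufa9, which lies near the ubiquinone site, gave -0.03 and -0.01. The membrane-arm subunits Ndufb2, Ndufb3, Ndufb4, Ndufb7 and Ndufb11 were called in males, at -0.32, -0.46, -0.23, -0.25 and -0.15, and not in females, at -0.21, -0.18, -0.12, -0.19 and -0.06, but none of these was called for the difference between the sexes. Ndufa5, Ndufa11 and Ndufb6 fell in both, at -0.28, -0.23 and -0.34 in males. Accessory subunits of the same complex thus ranged from -1.09 to 0.12 in males.

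Complex II, succinate dehydrogenase, which also serves the citric acid cycle, showed little change. In males 0 of 4 subunits were called in limma, and 0 passed an unadjusted p under 0.05. Sdha, the flavoprotein, gave -0.31 and 0.12 on the male arrays and -0.15 and 0.17 on the female arrays, so that its arrays lay on both sides of 0. Its 95% interval in males ran from -0.25 to 0.06, and that of Sdhb, the iron-sulfur subunit, from -0.19 to 0.19. Of the membrane anchors, Sdhc gave -0.17 in males and -0.13 in females, neither passing, and Sdhd passed in females (-0.35 and -0.34 on the 2 arrays, adjusted p = 0.011). In males Sdhd was at -0.09 (adjusted p = 0.38), and the sexes were not called different.

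Complex III, the cytochrome bc1 complex, was split between its subunits. Uqcrh, the hinge protein that aids the contact with cytochrome c1, gave -0.52 and -0.46 in males and -0.45 and -0.47 in females on the 2 arrays of each, 4 values close together. The change was -0.49 ± 0.06 in males (adjusted p = 0.00058, limma). Uqcrb, which binds ubiquinone, was -0.25 and -0.34. The core proteins Uqcrc1 and Uqcrc2 (0.07 and 0.04 in males, -0.09 and -0.09 in females) and the Rieske iron-sulfur protein Uqcrfs1 (-0.15 and -0.06) did not pass.

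ATP synthase was lower at 8 of 13 subunits in males and 10 of 13 in females, with medians of -0.29 and -0.34. Of the 4 peripheral stalk subunits, which hold the catalytic head still, 3 fell in each sex: Atp5f1, Atp5o and Atp5j. Atp5f1 was uneven, with -0.95 and -0.04 in males and -0.95 and -0.08 in females. Its mean was -0.49 ± 0.14 (adjusted p = 0.025, limma) and -0.52 ± 0.14 (adjusted p = 0.022). Array 1 of both comparisons lay on the same slide with the hypophysectomised RNA in Alexa 555. Slide and dye cannot be told apart on a single array. Array 1 of males over females lay on that slide with the male RNA in Alexa 647. There Atp5f1 gave 0.43 (intact) and 0.30 (hypophysectomised), and on array 2 it gave -0.28 and -0.21. Without array 1 of the hypophysectomy comparison the fitted ratio, corrected for dye, was -0.28 in males and -0.33 in females, and neither was called. Atp5i, a membrane subunit that joins ATP synthases into dimers, was even, with -0.57 and -0.45 in males and -0.63 and -0.39 in females, and a fitted change of -0.51 ± 0.06 in each sex.

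In the catalytic head (F1), Atp5d and Atp5e of the central stalk were at -0.40 and -0.44 in males, and Atp5a1, an alpha subunit, was at -0.24. Atp5b, the catalytic beta subunit, was at -0.31 ± 0.08 in females (adjusted p = 0.016) and -0.19 ± 0.08 in males (adjusted p = 0.088). Atp5c1, the gamma subunit that turns inside the head, gave 0.21 and -0.04 and did not pass. The proton-carrying c ring is encoded by 3 genes with the same mature protein. Atp5g3 fell in both sexes (-0.28 and -0.34), Atp5g1 passed in females (-0.39) and missed in males (-0.29, adjusted p = 0.059), and Atp5g2 was at 0.03 and -0.05. A second, dimmer Atp5g2 probe gave 0.19 in males (adjusted p = 0.022) where the brightest gave 0.03.

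**Figure D2:**
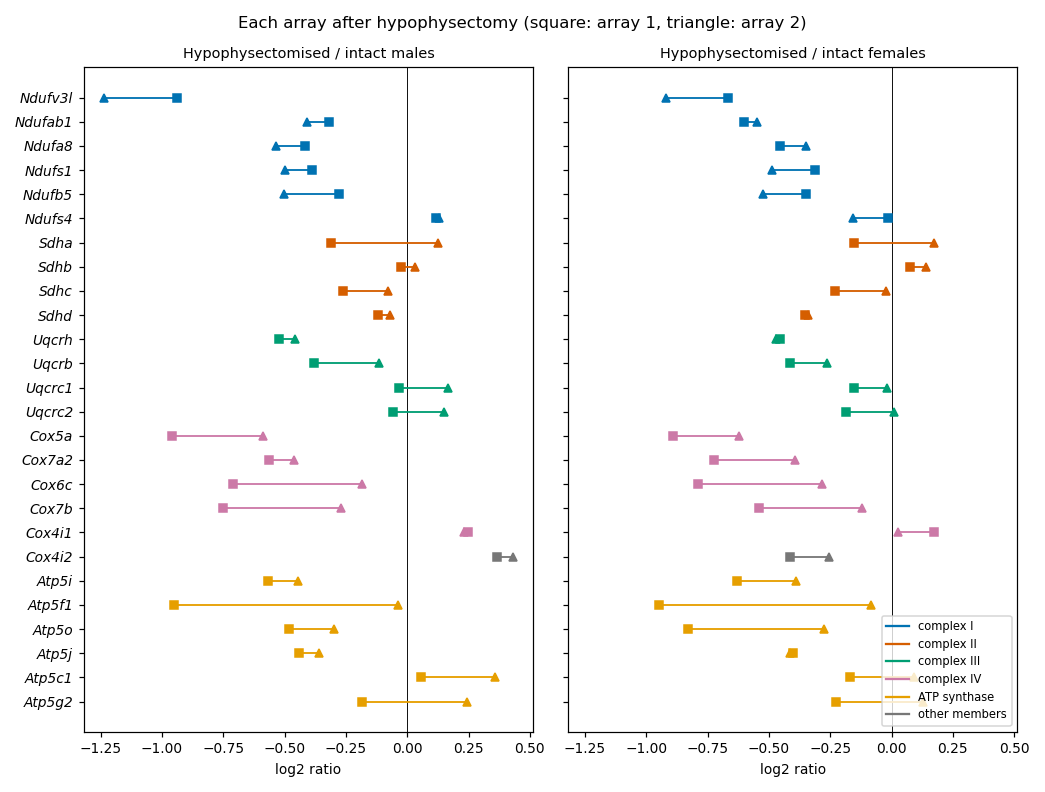
Log2 ratio of hypophysectomised over intact males (left) and females (right) for 26 genes on each array, with colours by complex; squares are array 1 and triangles array 2 of each comparison. The genes were picked after their values were seen. On array 2 Ndufv3l lies farthest left in both sexes (-1.24 and -0.92). On array 1 Cox5a and Atp5f1 lie farther left than Ndufv3l in both sexes, as do Atp5o, Cox6c and Cox7a2 in females. Uqcrh nearly coincides on its arrays, and Atp5f1 spans from -0.95 to -0.04 in males.

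The sexes responded alike at most genes. Of the lower genes 26 were lower in both, 81.2% of the 32 in males and 70.3% of the 37 in females. In neither sex were 28 lower, counting Cox6b, which was not tested. The same overlap was not counted over all probes, so it is not read as particular to these genes. Across the 70 genes the male and female ratios, which share no RNA but share the array slides, had a Pearson correlation of 0.80, given as a description. The difference between the sexes in the response was tested in limma as the mean of its 2 direct estimates. Whether these estimates shared pools is not known, and the fit took them as independent. In that test 2 of 70 genes were called, both higher in males, against 6.48% of all probes higher and 7.02% lower.

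**Figure D3:**
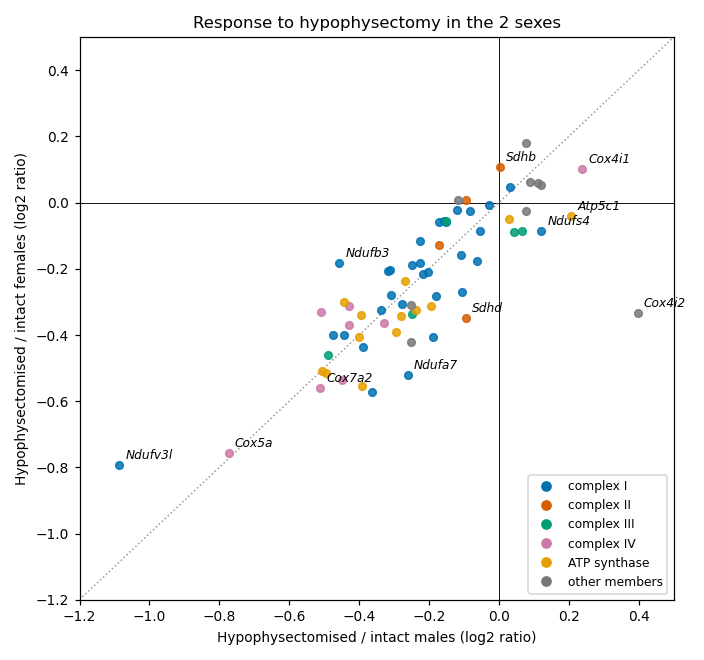
Log2 ratio after hypophysectomy in males (horizontal axis) and females (vertical axis) for 70 genes, coloured by complex, with equality as a dotted line; the labelled genes were picked after their values were seen. Most points lie near the line in the lower left, and Cox4i2 lies farthest into the lower right at 0.40 in males and -0.33 in females.

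Cox4i2 was the gene with a sex difference. It encodes the second isoform of subunit 4, known from lung and from cells that sense oxygen, and is described outside the 5 complexes because liver uses mainly Cox4i1. In intact rats it read -0.62 and -0.78 in males over females, the only gene of 70 called there (-0.70 ± 0.05, adjusted p = 5.8e-05, limma, 61.4% of the female level), where 7.42% of all probes were lower and 8.06% higher in males. After hypophysectomy it rose in males (0.37 and 0.43 on the arrays, fit 0.40 ± 0.05) and fell in females (-0.41 and -0.26, fit -0.33 ± 0.05). The arrays of the sexes do not overlap, and the difference was 0.70 (adjusted p = 9.4e-05). In hypophysectomised rats males over females gave 0.02 and -0.10, a mean of -0.04 with a 95% interval from -0.16 to 0.07. Of its fellow isoforms Cox6a2 (-0.12 and 0.01 after hypophysectomy in males and females), Cox8h, which is Cox8b in RefSeq (0.11 and 0.06), and Cox6b2 (0.08 and -0.02) did not pass. Their probes were dim, with mean log2 intensities of 7.88, 6.95 and 6.70. The liver counterparts Cox6a1 (-0.43 and -0.37) and Cox8a (-0.33 and -0.36) fell, on bright probes (15.94 and 15.77). The contrast is therefore not read as a difference between isoforms.

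Ndufs4, an accessory subunit of complex I needed for its assembly, was the other gene called for the sex difference, by 0.20 (adjusted p = 0.045). Its response was 0.12 in males and -0.09 in females, neither called by itself, and the call was lost (adjusted p from 0.066 to 0.15) when any single array but array 1 of the male hypophysectomy comparison was left out. Intact males and females were otherwise close, with a median ratio of 0.03 (all probes -0.01) and 5 genes above and 4 below 0 at an unadjusted p under 0.05. Hypophysectomised males and females gave 0 calls in limma against 0.53% of all probes higher and 0.419% lower, with 2 genes above and 2 below 0 at an unadjusted p under 0.05 and a median of 0.00. The largest ratio there was that of Ndufa7, 0.37 ± 0.12 (0.19 and 0.55, adjusted p = 0.25).

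The promoters of genes that behaved differently after hypophysectomy are shown to set their sequences side by side: Ndufv3l and Cox5a, the genes that fell most, Cox4i1, which rose in males, and Sdha, which was not called. Each is 300 bases from RefSeq (rat build GRCr8), from 250 before to 50 after the annotated start, on the gene's strand. Capitals mark matches, on either strand, to 4 short motifs of factors known to bind respiratory gene promoters: NRF1 (GCGC and TGCGC with 1 base between), ETS factors including GABP (CCGGAAG), Sp1 (GGGCGG) and YY1 (AANATGGC).
Ndufv3l (chr20:9613536-9613835, plus strand): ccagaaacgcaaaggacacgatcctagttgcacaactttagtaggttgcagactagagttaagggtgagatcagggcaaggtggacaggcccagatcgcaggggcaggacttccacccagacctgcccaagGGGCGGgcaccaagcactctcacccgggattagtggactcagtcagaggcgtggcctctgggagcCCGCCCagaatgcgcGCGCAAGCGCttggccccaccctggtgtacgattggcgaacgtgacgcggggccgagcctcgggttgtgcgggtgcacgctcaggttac
Cox5a (chr8:66818034-66818333, plus strand): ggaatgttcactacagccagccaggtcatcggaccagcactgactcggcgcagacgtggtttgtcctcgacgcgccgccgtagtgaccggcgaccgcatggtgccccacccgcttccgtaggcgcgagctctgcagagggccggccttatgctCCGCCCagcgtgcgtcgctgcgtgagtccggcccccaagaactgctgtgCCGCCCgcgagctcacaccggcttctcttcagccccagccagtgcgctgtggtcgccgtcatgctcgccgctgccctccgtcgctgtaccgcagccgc
Cox4i1 (chr19:65630133-65630432, plus strand): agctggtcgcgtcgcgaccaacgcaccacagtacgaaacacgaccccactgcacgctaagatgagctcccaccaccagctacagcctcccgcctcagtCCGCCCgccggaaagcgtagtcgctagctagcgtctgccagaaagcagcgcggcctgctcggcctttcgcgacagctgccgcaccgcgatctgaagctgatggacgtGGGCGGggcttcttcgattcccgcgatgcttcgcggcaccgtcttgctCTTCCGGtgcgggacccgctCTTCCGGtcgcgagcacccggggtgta
Sdha (chr1:30764303-30764602, plus strand): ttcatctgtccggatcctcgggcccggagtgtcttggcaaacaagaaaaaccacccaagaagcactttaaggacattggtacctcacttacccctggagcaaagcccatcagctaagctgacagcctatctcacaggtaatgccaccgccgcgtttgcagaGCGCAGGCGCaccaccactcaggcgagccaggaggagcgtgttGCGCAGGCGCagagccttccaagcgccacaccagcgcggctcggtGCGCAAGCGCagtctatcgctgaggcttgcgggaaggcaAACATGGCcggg
The motifs differ between the 4: the Ndufv3l stretch holds an NRF1 match and a pair of Sp1 matches, that of Cox5a holds Sp1 matches alone, that of Cox4i1 holds ETS and Sp1 matches, and that of Sdha holds 3 NRF1 matches and a YY1 match at the start of the transcript.

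Of the 61 subunits 54 had a promoter in the table. An NRF1 match was present in 14 of them (25.9%), ETS in 17 (31.5%), Sp1 in 23 (42.6%) and YY1 in 22 (40.7%). Among all 33469 promoters of the same length the shares were 4.25%, 8.75%, 33.1% and 6.96%. The 21 subunits lower in both sexes and the 18 lower in neither had like shares for NRF1 (28.6% and 22.2%), ETS (38.1% and 38.9%) and Sp1 (38.1% and 38.9%), and YY1 was present in 38.1% and 55.6%. These are counts of letters in a short window, in which matches overlapped in 1 subunit promoter, and were not tested.

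A single GH injection changed almost none of the genes within 90 min. Of 69 genes tested 1 was higher and 0 lower, against 7.49% and 6.79% of all probes, and the median was 0.02 (all probes 0.00). At an unadjusted p under 0.05 in limma 5 were above and 3 below 0. The gene called was again Ndufv3l, with 0.58 on array 1 and 0.04 on array 2, a fit of 0.31 ± 0.07 (adjusted p = 0.029). Array 2 was near 0, and the call was lost without array 1 (adjusted p = 0.37) or array 2 (0.17). Cox5a, the other gene most lowered by hypophysectomy, gave 0.45 and -0.02, with a 95% interval from -0.14 to 0.57.

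After 2 injections 25 of 71 genes were lower and 1 was higher than in untreated hypophysectomised males, against 15.8% and 15% of all probes. The median was -0.15 (all probes -0.01). This comparison and that of hypophysectomised over intact males share hypophysectomised male RNA on opposite sides of the ratio, so no overlap between their calls is read here. Side by side, Ndufa8 was at -0.41 after 2 injections and at -0.47 after hypophysectomy in males, and Uqcrh at -0.11 (not passing) and -0.49. Array 2 carried more of the decrease: the gene median was -0.07 on array 1 and -0.22 on array 2. Of the 26 genes called, 10 remained called in the same direction without array 1 (all lower) and 4 without array 2 (3 lower), and no others were called then. After median centring alone 0 genes were called, 73 probes in place of 8773 were called in all, and the gene median was -0.65.

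Complex I supplied 14 of the 25 lower genes and the higher one. Ndufs4 gave -0.43 and -0.61 (-0.52 ± 0.05, adjusted p = 0.00021, limma), 69.7% of the untreated level. Ndufa6, which had been level after hypophysectomy, gave -0.58 and -0.29 (-0.43 ± 0.06), and Ndufa8 gave -0.20 and -0.62 (-0.41 ± 0.09). These are lower on both arrays, though to different degrees. Ndufs5b (Ndufs5 in RefSeq), a small subunit of the intermembrane-space side, was at -0.31 ± 0.10 with its decrease almost wholly on array 2 (-0.04 and -0.58), and Ndufv3l likewise (0.02 and -0.63).

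Against these, Ndufa7, an accessory subunit of the matrix arm, rose. It gave 1.12 and 0.56, both above the value of every other gene in the set, a fit of 0.84 ± 0.12 (adjusted p = 0.0013, limma), 179% of the untreated level. Without array 1 the adjusted p was 0.052 and the ratio 0.68. It had fallen after hypophysectomy in females (-0.57 and -0.47, adjusted p = 0.013) and was at -0.26 in males (adjusted p = 0.14), and after 1 injection it gave 0.57 and -0.04, so its arrays disagreed there. Its promoter, shown because it rose where 14 subunits of its complex fell, holds a YY1 match next to the start and none of the other 3 motifs.
Ndufa7 (chr7:15311196-15311495, plus strand): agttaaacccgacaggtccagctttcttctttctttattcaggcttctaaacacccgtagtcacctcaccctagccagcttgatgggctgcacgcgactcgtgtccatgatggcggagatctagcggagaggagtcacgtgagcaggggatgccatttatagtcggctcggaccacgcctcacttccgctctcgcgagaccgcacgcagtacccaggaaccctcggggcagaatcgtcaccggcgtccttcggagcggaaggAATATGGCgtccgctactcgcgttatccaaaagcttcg

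Complex II, nearly level after hypophysectomy, was lower at 3 of 4 subunits after 2 injections, with a median of -0.32. The anchors Sdhd (-0.33 and -0.57, fit -0.45 ± 0.08, adjusted p = 0.0031) and Sdhc (-0.31 and -0.51, fit -0.41 ± 0.08, adjusted p = 0.0048) fell on both arrays, as did Sdha (-0.32 and -0.17). Sdhb gave 0.04 and -0.33 and did not pass. Only 1 subunit each was lower in complexes III (Uqcrc2, -0.19) and IV (Cox4i1, -0.13 and -0.27, adjusted p = 0.037, and 0.27 or 0.24 without array 1 or 2), with class medians of -0.13 and -0.07. In ATP synthase 4 of 13 fell: Atp5c1 (-0.39), Atp5g2 (-0.24), Atp5d (-0.21) and Atp5i (-0.19). Cox5a (0.51 and 0.05, adjusted p = 0.23) and Cox7a2 (0.00 and 0.01) gave no call.

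Outside the complexes, Atp5s, coupling factor B, gave -0.58 and -0.88 (-0.73 ± 0.08, adjusted p = 0.00034, limma), 60.3% of the untreated level and the largest decrease of the comparison. It had been at 0.08 and 0.18 after hypophysectomy and was at -0.28 (-0.12 and -0.43, adjusted p = 0.065) after 1 injection. Cox7a2l, which joins complexes III and IV, fell by 0.23.

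**Figure D4:**
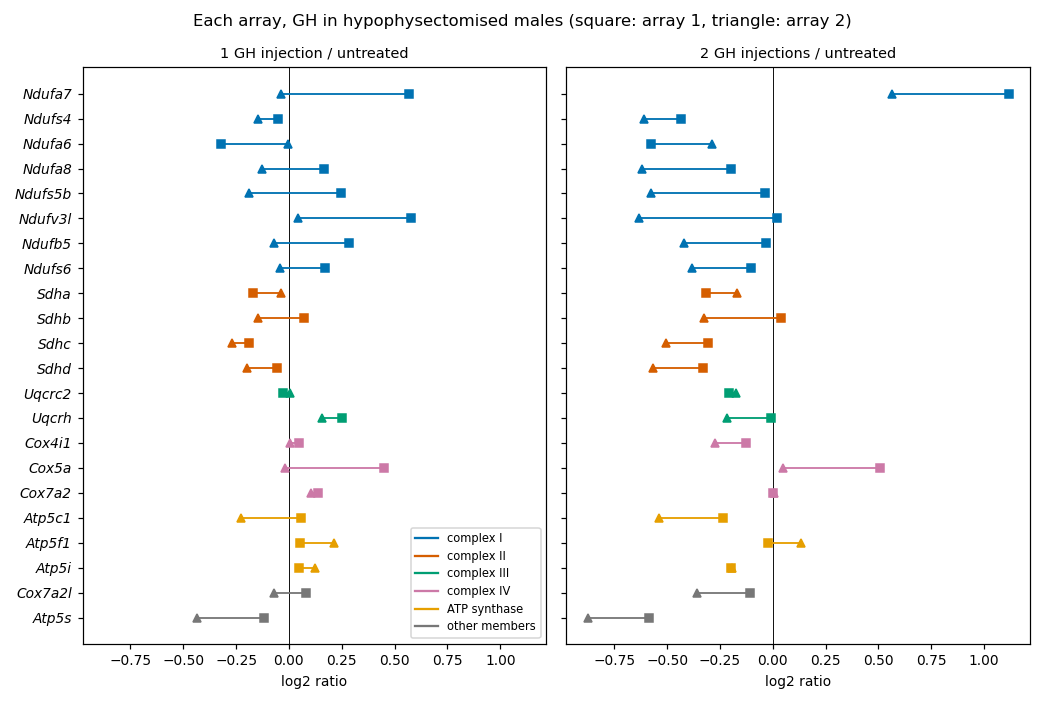
Log2 ratio over untreated hypophysectomised males after 1 (left) and 2 (right) GH injections for 22 genes on each array, with colours by complex; squares are array 1 and triangles array 2. The genes were picked after their values were seen. After 2 injections Ndufa7 lies farthest right on each array, at 1.12 and 0.56, and Cox5a reaches 0.51 on array 1. Atp5s lies farthest left on array 2, at -0.88.

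Over the 6 comparisons 15 of the 71 genes were called in none. The same share of all probes was not counted, so this number is not read as particular to the genes. Where a gene had several probes tested, no comparison gave calls in opposite directions.

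Whether 2 injections differed from 1 was tested through the shared hypophysectomised male RNA. The number of injections cannot be told apart here from the time since the first, or from the single GH pool behind each number. In limma 5 of 69 genes were called, all lower after 2 (4.82% of all probes were lower and 5.56% higher): Ndufv3l by -0.62 ± 0.11 (adjusted p = 0.010), Atp5s by -0.46 ± 0.12 (0.047), Ndufs4 by -0.42 ± 0.08 (0.013), Ndufb5 by -0.33 ± 0.08 (0.040) and Ndufs6 by -0.31 ± 0.08 (0.039). Ndufa7, at 0.58 ± 0.18 in the other direction, missed (adjusted p = 0.081). The GH arrays with the same number deviated together, and the sources used here do not say whether they shared a pool of untreated RNA. With a replicate block for the 4 GH arrays, chosen after seeing the data, 8 genes were called in limma, 7 lower after 2 injections and 1 higher (5.45% of all probes were lower and 6.1% higher). They were the 5 above with Ndufa8 (-0.43), Uqcrh (-0.32) and Ndufa7. The Ndufa7 difference was 0.55 between the first arrays and 0.60 between the second (0.58 ± 0.13, adjusted p = 0.035, limma). Both differences come from the same GH pools, so their closeness does not measure the spread between animals. Leaving out either array of the 1-injection comparison, or array 2 of the 2-injection comparison, left 0 calls, and array 1 of the latter left 1.

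Genes that work beside the complexes were read from lists, and their counts after hypophysectomy stand against the 18.5% lower and 19% higher of all probes in males and 18.4% and 17.9% in females. Of 10 electron carriers and subunits outside the symbol rule 5 fell and 1 rose in hypophysectomised males, and 4 fell and 1 rose in females. Cycs, cytochrome c itself, was -1.18 in males and -0.84 in females, and Cyc1, cytochrome c1 of complex III, was -0.50 and -0.58. After 2 GH injections 1 of the 10 rose, Cycs by 0.43, and 4 fell, against 15% of all probes higher and 15.8% lower. The median of the 10 was then -0.19. Of 17 citric acid cycle genes 6 fell and 2 rose in males, and 8 fell and 2 rose in females, which is 35.3% and 47.1% lower and 11.8% higher in each sex. Cs, citrate synthase, was -1.18 and -1.09, Idh3a, of the NAD-linked isocitrate dehydrogenase, -1.10 and -0.94, and Fh1, fumarase, rose (0.93 and 0.68).

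Of 14 mitochondrial carriers and uncoupling proteins 4 fell and 3 rose in each sex, 28.6% and 21.4% of the list, both near the shares of all probes. Gpd2, the glycerol phosphate dehydrogenase of the inner membrane and a known target of thyroid hormone, was -1.80 and -2.05, and Slc25a12, an aspartate-glutamate carrier, -1.48 and -1.12. Both rose after 1 GH injection, by 0.77 and 0.50. Of 12 thyroid hormone responsive genes 7 fell and 2 rose in males and 5 fell and 3 rose in females, led by Me1, malic enzyme (-2.63 and -2.82), and Dio1, the deiodinase of liver (-2.42 and -1.30).

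Among 20 regulators of mitochondrial biogenesis 7 rose and 3 fell in males and 4 rose and 1 fell in females, so that 35% were higher in males while the 20% in females was near the share of all probes. Thrb, a thyroid hormone receptor, rose by 1.42 and 0.86, and Yy1 by 0.36 and 0.21. After 1 GH injection 3 of 21 rose and 1 fell, against 7.49% of all probes higher and 6.79% lower. After 2 injections 4 of 21 rose and 5 fell, against 15% and 15.8%. The largest rise was that of Pprc1, a coactivator of the PGC-1 family, by 1.03 after 1 injection and 1.67 after 2. The largest decrease after 2 was that of Thrb (-0.86). Assembly factors were mixed, with 3 lower and 2 higher of 16 in males. Mitochondrial ribosomal proteins were lower at 22 of 63 and higher at 6 in males (17 and 4 of 62 in females), whereas cytosolic ribosomal proteins were higher at 33 of 107 and lower at 4 in males, with a median of 0.19, and higher at 29 of 106 and lower at 3 in females.

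Of 13 probes to mitochondrial DNA transcripts, 3 were to cytochrome b of complex III, and 3 of 3 were lower in males (-0.96, -0.83 and -0.75) and in females (-0.88, -0.83 and -0.71). The 10 probes to cytochrome oxidase disagreed. In males 3 were higher (0.41 to 0.58) and 1 lower (-1.63), and the other 6 lay between -0.93 and -0.61 without passing, with SEs of 0.32 to 0.39, so that the median of the 10 was -0.79. In females 2 of 9 tested were higher (0.40 and 0.93) and 7 lay between -0.74 and -0.68 without passing, with a median of -0.69. The sources used here do not give the strand that each probe reads.

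Markers of other cell types, and of hepatocytes, also moved. The erythroid markers were lower at 3 of 3 in hypophysectomised males (Hbb -3.69, Alas2 -2.07) and females (-1.48 and -0.96). Hbb and Alas2 were higher after 1 GH injection (2.45 and 1.03) and after 2 (1.54 and 0.47), while Slc4a1, the anion exchanger of red cells, was lower after 2 (-0.64, adjusted p = 0.0021, limma). In hypophysectomised males over females 2 of the 3 were lower.

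Of 6 macrophage markers, all well above background in 24 of 24 channels, 5 were higher after 1 GH injection (Vsig4 0.46, Clec4f 0.44) and 1 lower (Lyz2 -0.39), and 4 were lower for 2 injections against 1. After 2 injections the 6 lay between -0.15 and 0.09. They were lower at 4 and higher at 1 in intact males over females, lower at 3 in hypophysectomised males over females, lower at 1 in hypophysectomised over intact males, and higher at 2 and lower at 1 in the same comparison of females. Of the 7 hepatocyte markers, Apoa1 was lower after hypophysectomy in males (-2.74) and females (-1.38) and Serpina1 was lower in males, while albumin was not called (0.28 and -0.06). After 2 GH injections Serpina1 (0.74) and Apob (0.35) were higher.

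Endothelial markers were higher at 3 of 4 in hypophysectomised males and 3 of 3 tested in females, and Epcam, of bile duct, was higher by 1.82 and 1.75. Of 9 muscle and heart markers, Acta1, Tnni2 and Mb were well above background in 24 of 24 channels, and after 1 GH injection they were higher by 1.15, 0.58 and 0.42. Ckm, Myh7 and Myh6 were well above background in 5, 3 and 2 of 24 channels and are given no ratio, and Pvalb in 0 of 24. Of the pancreas markers Cpa1, well above background in 16 of 24 channels and given no ratio, was lower in intact males over females and in hypophysectomised over intact females, while Cela1 (24 of 24 channels) was higher in both (1.74 and 1.18). Amy2 (24 of 24 channels) was higher in the first (0.62) and lower in the second (-0.27). It was also lower in hypophysectomised over intact males (-0.52) and after 1 and 2 GH injections (-0.40 and -0.86). The part of these markers in the changes above was not tested.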

How the data were processed

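Each two-channel array was read with Agilent Feature Extraction 9.1.3.1, per the file headers. The deposited scanner files hold, per spot, mean and background intensity in both dyes (45018 spots, 41012 distinct probes, 0 saturated), a processed intensity, and the log10 ratio made from it. The deposited value table, whose scale is not stated, tracked the log2 ratio of channel 2 over channel 1 of the processed signals, and its column medians ran from -0.11 to 0.13. Mean intensities were corrected by normexp (offset 50) and loess in limma 3.58.1 under R 4.3.3 (with data.table, version 1.17.8), and turned to channel 2 over channel 1 by the labelled dyes. Tests covered probes with 1 or both RNAs well above background on each array of the comparison. One limma fit over 29006 probes had a coefficient per comparison and a dye coefficient (residual degrees of freedom 5, prior ones 3.08 with an SD of 0.101), so the comparisons share 1 spread. The code was tested on simulated data.

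The labels tie no replicate number to a shared pool, and over 15 pairs of comparisons the deviations of same-numbered arrays correlated from -0.68 to 0.88 (from -0.67 to 0.84 with the dye coefficient removed), above 0.1 in 6. A pool shared on opposite sides of 2 ratios would give a negative correlation, so this count cannot tell whether the numbers pair the arrays. With the dye coefficient removed, hypophysectomised over intact males correlated at 0.84 with hypophysectomised males over females and at -0.46 with intact males over females. Hypophysectomised over intact females correlated at 0.04 with hypophysectomised males over females. The fit took the arrays as unpaired, and whether pools were shared is not known. The 2 GH comparisons, at 0.88 (0.69), deviated together, and a replicate block for their 4 arrays was added. The 12 arrays lay on 3 slides of 4. Slide 1 held the first arrays and slide 2 the second arrays of the 4 comparisons without GH, and slide 3 the 4 GH arrays. Ratios around the loop of the 4 RNAs without GH summed to within 0.25 of 0 for 70 of 70 genes. Gene names are those of the array design. All 71 genes matched the RefSeq table (44 by accession, 23 by symbol, 4 by synonym).

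Genes named with values were, per comparison, up to 8 higher and 8 lower called genes of largest change with the same direction on both arrays, the brightest per complex, isoform pairs, genes called for the sex or injection difference, and up to 3 per other list. Further genes were named after their values were seen. The members and lists were chosen with earlier results of these data known. Alternatives changed the background correction, centring, value source, filter, dye coefficient, fitted arrays, replicate block, slide, probe choice and each array left out.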

Additional observations from a re-analysis of the deposited data

Results flagged for a closer look

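Single arrays could not be tested for standing apart, since each group had 2. Differences between groups that passed their own test in limma were the following. The response to hypophysectomy in males minus females was 0.70 for Cox4i2 and 0.20 for Ndufs4 (log2). Between 2 GH injections and 1 the log2 difference was -0.62 for Ndufv3l, -0.46 for Atp5s, -0.42 for Ndufs4, -0.33 for Ndufb5 and -0.31 for Ndufs6.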

How the results depend on the processing

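None of the 49 named results changed direction under any alternative, which was partly fixed in advance. Most were picked for the same direction on both arrays, and several alternatives left the ratio itself unchanged. Centring each array on its median gave 0 members called in the 5 comparisons that had calls, for the sex dependence and for 2 injections against 1, and member medians of -0.22 (males over females), -0.021 (hypophysectomised over intact males), -0.19 (hypophysectomised males over females), -0.072 (1 injection) and -0.65 (2 injections), and the cause was not tested. Processed signals and the value table each gave 0 members for 1 injection and 1 for the sex dependence, which was also 1 with no filter, with the members outside the complexes dropped, with the 8 arrays without GH fitted alone and with slide as a fixed coefficient there (the last 2 chosen after seeing the data). Centring on detected probes gave 2 members for intact males over females and 2 for 1 injection, the second brightest probe 2 for 1 injection, and dropping members outside the complexes 0 for intact males over females. With no dye coefficient 1 injection had 0 members, 2 injections 9, sex dependence 1 and 2 against 1 injection 0. Each comparison's arrays alone gave 2 for intact males over females, 2 for hypophysectomised males, 0 for 1 injection, 2 for 2 injections, 1 for sex dependence and 0 for 2 against 1, with fewer arrays behind the spread. With a replicate block 1 injection had 0, 2 injections 17, sex dependence 1 and 2 against 1 injection 2, and hypophysectomised males 31 and females 30, while a replicate block of the 4 GH arrays alone (chosen after seeing the data) gave 3 for 1 injection, 28 for 2 injections and 8 for 2 against 1. Leaving out single arrays gave 1 to 3 members (intact males over females), 12 to 35 (hypophysectomised males), 8 to 40 (females), 0 to 3 (1 injection), 4 to 25 (2 injections), 1 to 2 (sex dependence) and 0 to 8 (2 against 1), and medians of -0.33 to -0.094 in hypophysectomised males, -0.36 to -0.14 in females and -0.26 to -0.066 after 2 injections. A lone array is assumed to vary like the other groups. Slide as a random block (correlation 0.0137) changed 0 of the 49. Precision is limited by 2 arrays a comparison.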
